A study of Homo sapiens with 4 samples.

Results

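The messages of the Krüppel-like factors (KLF), the specificity proteins (SP) and the early growth response factors (EGR) were examined in RNA released by HEK293T, a human embryonic kidney cell line. The members were all protein-coding genes whose symbol in the authors' deposited table is KLF with any number, SP1 to SP9 or EGR1 to EGR4. There were 31 members of 61543 genes, 18 KLF, 9 SP and 4 EGR. Supernatant RNA was sequenced in 2 libraries of EPN24-Cas13d, a fusion of the secreted nanocage protein EPN24 with the CRISPR RNA-binding enzyme Cas13d, and in 2 libraries of EPN24 without Cas13d. The question was which transcripts Cas13d binds in living cells, read from the RNA that leaves with the cages. Both groups share the cell line, the medium and the added synthetic ERCC RNA. RNA inside the nanocages is not separated from other RNA of the supernatant, a lysate of the cells was not analysed here, and the number of releasing cells and the RNA released per cell cannot be told apart. Whether the replicates are separate cultures is not stated in the labels, and the p-values therefore cover only library-to-library spread, which may be technical.

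All 3 families are transcription factors with C2H2 zinc fingers in the later part of the protein. They bind GC-rich DNA such as GC boxes, CACCC boxes and the EGR site. KLF and SP proteins act at the promoters of many housekeeping and cell type genes, some as activators and some as repressors that recruit SIN3 or CtBP. EGR genes are immediate early genes, whose short-lived messages rise quickly after growth factor or stress signals.

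The members share a finger fold but differ in the residues and codons of it, and transcript GC is a property with which the fold changes over all genes moved, as described further on. A search of the annotated coding sequences found 3 fingers in each of the 31 members. These stretches were 243 bases long in each KLF and SP member and 237 bases in each EGR member. The last finger is shown for the 3 messages that took most of the counts with Cas13d (KLF16, KLF13, SP1), for SP3 and SP4, relatives of SP1 that were lower with Cas13d, and for EGR1. Each run goes from the first cysteine codon to the last histidine codon, 63 bases or 21 codons, from GENCODE 29 on GRCh38, and capitals mark a G or C at the third base of a codon.
KLF16, chr19:1854591-1854653, minus strand: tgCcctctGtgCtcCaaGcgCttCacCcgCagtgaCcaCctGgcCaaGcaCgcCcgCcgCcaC
KLF13, chr15:31372117-31372179, plus strand: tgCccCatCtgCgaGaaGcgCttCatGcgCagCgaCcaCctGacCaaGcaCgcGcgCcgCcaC
SP1, chr12:53410944-53411006, plus strand: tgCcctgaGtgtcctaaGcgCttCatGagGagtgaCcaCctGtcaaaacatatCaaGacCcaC
SP3, chr2:173910178-173910240, minus strand: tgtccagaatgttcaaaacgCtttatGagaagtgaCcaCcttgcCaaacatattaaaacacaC
SP4, chr7:21511039-21511101, plus strand: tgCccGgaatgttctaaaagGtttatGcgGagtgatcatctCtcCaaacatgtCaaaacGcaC
EGR1, chr5:138467641-138467703, plus strand: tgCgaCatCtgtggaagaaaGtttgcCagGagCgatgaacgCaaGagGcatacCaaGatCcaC
Of the 21 codons 19 ended in G or C in KLF16, 21 in KLF13, 14 in SP1, 6 in SP3, 10 in SP4 and 14 in EGR1. These messages were picked with their fold changes known, and the relation for the whole finger stretches across all tested members is given further on. The last fingers of SP1 and SP3 encode the same residue at 19 of 21 positions, 10 of them with a different codon, and those of SP1 and SP4 at 19, 12 of them with a different codon. KLF16 and KLF13 share 17 residues (3 with a different codon), KLF16 and SP1 share 14 (4), and EGR1 and SP1 share 9 (3).

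Gene counts summed to 5097332 and 4863449 with EPN24-Cas13d, against 1830860 and 1903492 with EPN24. ERCC transcripts took 1.73% and 1.66% of all counts with EPN24-Cas13d and 19.6% and 20.9% with EPN24. CPM values below carry TMM scaling, which compares each message's share of the sample. A floor of 3 counts in a library corresponded to 0.721 and 0.755 CPM with EPN24-Cas13d and to 1.34 and 1.42 CPM with EPN24. PCR duplicates could not be removed by molecular identifiers, so these floors and the intervals below describe counting error alone. Of the whole member counts above 0, 17 of 22 and 21 of 29 were even in the EPN24-Cas13d libraries. In the EPN24 libraries 21 of 29 and 21 of 28 were even. Whether both reads of a pair were counted was not tested. If so, the floors stand for fewer molecules, and the intervals and fold bounds below are too tight. The alternative fits include one with counts halved. Of 6 messages known from HEK293T, 4 were higher, 1 lower and 1 not called, beside 32.6% higher and 48.2% lower over all tested genes. Each averaged at least 11.8 CPM with EPN24-Cas13d and 18.6 CPM with EPN24. Of 6 markers of other cell types CD14 was at 0 in every library, and the others averaged at most 22.0 CPM with EPN24-Cas13d and 33.3 CPM with EPN24, with COL1A1 the most abundant. Of the 4 that could be tested 0 were higher, 3 lower and 1 not called. With EPN24 COL1A1 lay above KRT8 (22.6 CPM), KRT18 (18.6), PAX2 (19.2) and NEFL (29.7), and below VIM (141) and NEFM (99.7).

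With Cas13d attached, KLF16, KLF13 and SP1 supplied most of the counts of these families, whereas with EPN24 alone the counts were spread over many members. KLF16, KLF13 and SP1 together held 78.8% and 75.6% of member counts in the EPN24-Cas13d libraries, against 12.3% and 12.4% in the EPN24 libraries. These messages were picked as the largest with EPN24-Cas13d, which widens that contrast. The largest message with EPN24 was SP3, with 131 of 979 and 102 of 941 member counts. The 31 members together summed to 1156 ± 60.5 CPM with EPN24-Cas13d and 441 ± 6.24 CPM with EPN24 (SD, n = 2 each). The other 28 messages summed to 236 and 292 CPM with EPN24-Cas13d, against 383 and 390.3 CPM with EPN24. The EGR family took 0.194% and 0.42% of member counts with EPN24-Cas13d and 10.2% and 16.2% with EPN24.

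**Figure D1:**
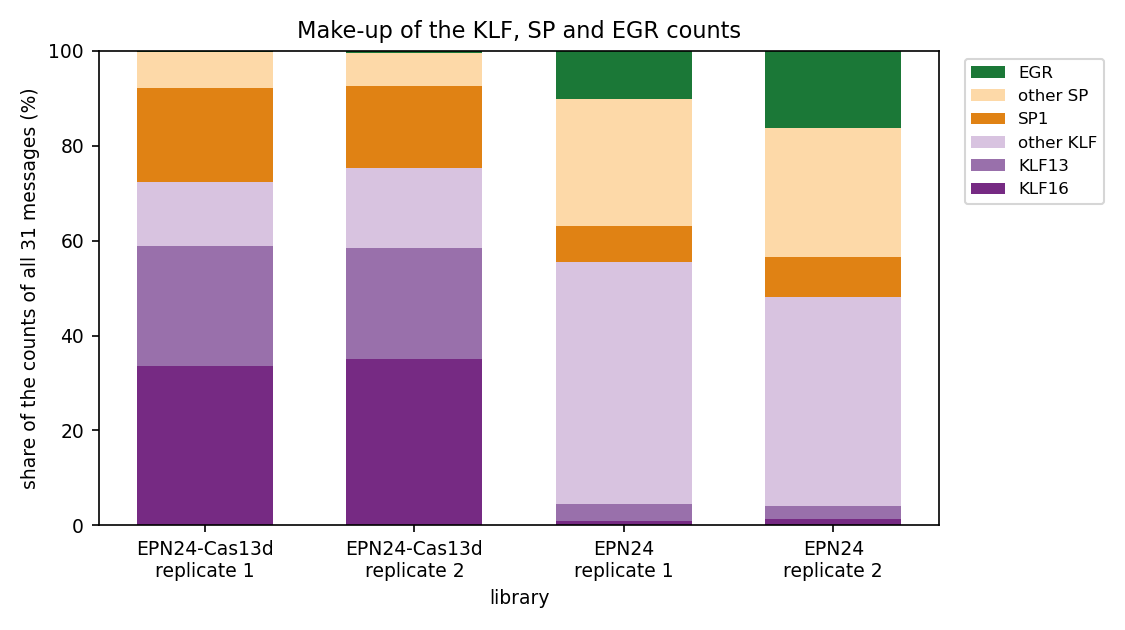
Stacked bars show the share (%) of the counts of all 31 messages taken by KLF16, KLF13, the other KLF messages, SP1, the other SP messages and the EGR messages in each library. KLF16, KLF13 and SP1 fill 78.8% and 75.6% of the EPN24-Cas13d bars and 12.3% and 12.4% of the EPN24 bars.

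Of the 31 members 26 had enough counts to be tested by edgeR's quasi-likelihood test, of which 7 were higher with EPN24-Cas13d, 12 lower and 7 not called at an adjusted p of 0.05. Over all 20476 tested genes 80.9% were called, 32.6% higher and 48.2% lower, and over tested protein-coding genes 37% and 42.9%, so the members' counts lay near the background. The median log2 fold change was -0.57 over the tested members and -0.96 over all tested genes. The 5 higher and 6 lower KLF, 2 higher and 3 lower SP, and 0 higher and 3 lower EGR members are described by family below. The CPM of the groups did not overlap for 26 of the 31 members, 9 with EPN24-Cas13d above EPN24 and 17 below, and over tested genes 36.8% lay above and 54.3% below without overlap. With 2 libraries in each group an exact permutation test of a single value cannot go below a p of 0.333, so the p-values below are those of the fit across all genes.

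**Figure D2:**
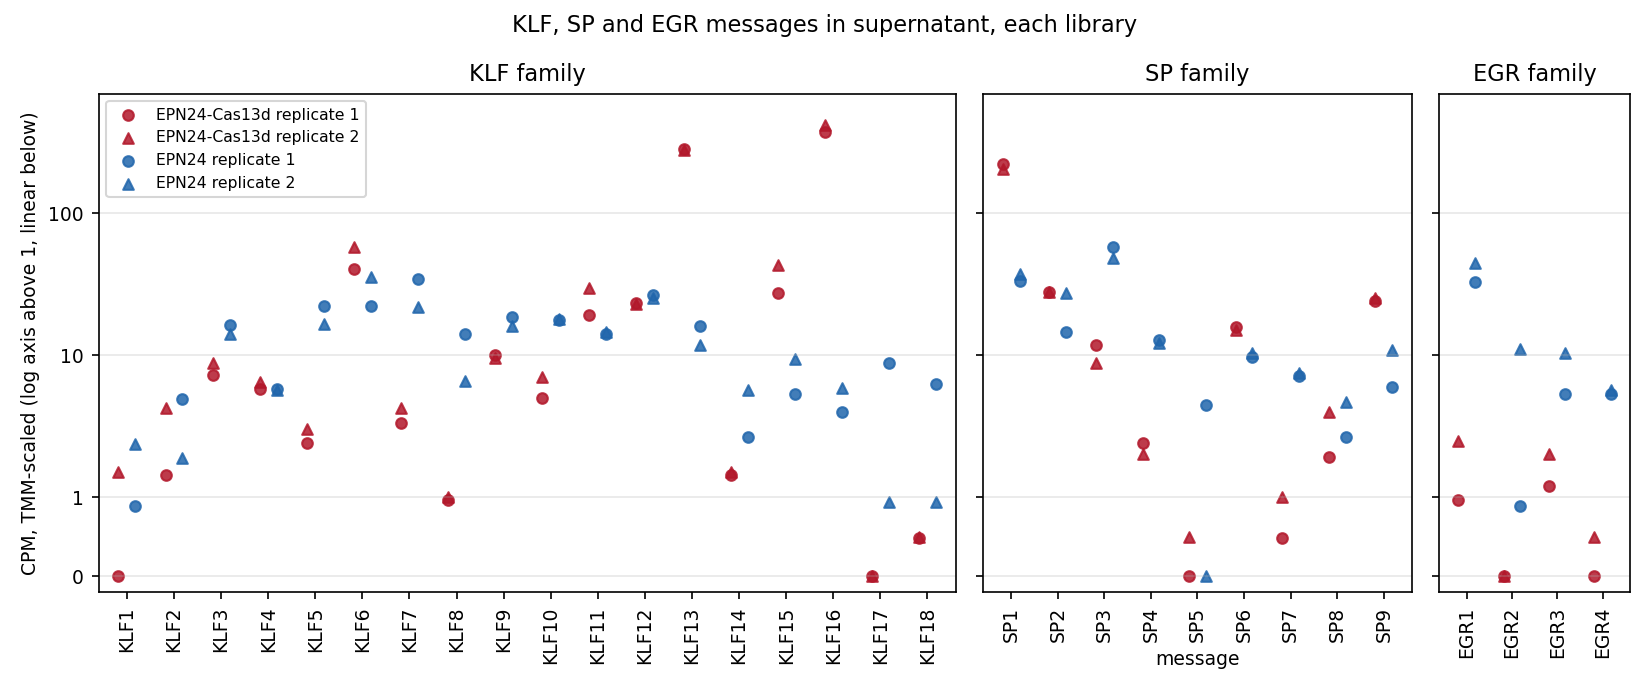
Points give the TMM-scaled CPM of each of the 31 messages in each library (circles for replicate 1, triangles for replicate 2), on an axis that is logarithmic above 1 and linear below. KLF16, KLF13 and SP1 stand above 200 CPM with EPN24-Cas13d and below 40 CPM with EPN24, and the EGR messages lie lower with EPN24-Cas13d.

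KLF16, a GC-box repressor that binds SIN3 (ENSG00000129911.9, GRCh38 chromosome 19, 1852399 to 1863579, minus strand), showed the largest rise of the 3 families. It had 1551.5 and 1667 counts in the EPN24-Cas13d libraries, against 9 and 12.5 counts in the EPN24 libraries. Its level was 373 and 419.6 CPM with EPN24-Cas13d, against 4.01 and 5.92 CPM with EPN24. The means were 396 ± 33.0 CPM with EPN24-Cas13d and 4.97 ± 1.35 CPM with EPN24 (SD, n = 2 each), and the log2 fold change was 6.35 (approximate SE 0.21, adjusted p = 4.41e-12 by edgeR). The groups lay far apart, and KLF16 ranked 40 from the top of the 20476 tested genes by log2 fold change. KLF16 shares exon sequence with the opposite-strand gene ENSG00000267125, which had 226 and 210 counts with EPN24-Cas13d and 3 and 1.5 counts with EPN24. The strand setting of the counting is not given in the sources used here, so reads of the 2 genes cannot be told apart where they overlap. In all 7 members overlap exons of another gene, 6 of them on the opposite strand, and the same limit holds for KLF3, KLF7, KLF11, SP9 and EGR3. The partner of KLF3, KLF3-AS1, had 0.5 and 3 counts with EPN24-Cas13d and 14 and 22 with EPN24, and that of KLF7, MYOSLID, had 2 and 2 with EPN24-Cas13d and 14.5 and 8 with EPN24. The partner of EGR3, ENSG00000253125, had 1 and 0 counts with EPN24-Cas13d and 6 and 4 with EPN24, and that of KLF11, ENSG00000271787, had 3 and 3 with EPN24-Cas13d and 2 and 0 with EPN24. EGR2 overlaps ENSG00000289487 on its own strand, at 0 and 0 counts with EPN24-Cas13d and 1 and 5.5 with EPN24.

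KLF13, a regulator of the chemokine gene CCL5 in T cells (ENSG00000169926.11, chromosome 15, 31326835 to 31435665, plus strand), was the other KLF message that rose strongly. It had 1176 and 1118 counts in the EPN24-Cas13d libraries, against 36 and 25 counts in the EPN24 libraries. KLF13 measured 283 and 281 CPM with EPN24-Cas13d, against 16.1 and 11.8 CPM with EPN24, a log2 fold change of 4.33 (SE 0.18, adjusted p = 3.37e-11 by edgeR). KLF15, known for gluconeogenesis in liver and for podocyte differentiation in kidney, measured 27.4 and 43.3 CPM with EPN24-Cas13d and 5.35 and 9.47 CPM with EPN24, from 114 and 172 counts with EPN24-Cas13d and 12 and 20 counts with EPN24. Its log2 fold change was 2.25 (SE 0.37, adjusted p = 8.76e-05 by edgeR), and both EPN24-Cas13d libraries lay above both EPN24 libraries.

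KLF6 and KLF11 rose by less, and their calls were weak. KLF6, a widely expressed factor induced by injury in liver, measured 40.4 and 57.9 CPM with EPN24-Cas13d and 22.3 and 36.0 CPM with EPN24, from 168 and 230 counts with EPN24-Cas13d and 50 and 76 with EPN24. It had a log2 fold change of 0.76 (SE 0.27, adjusted p = 0.0178 by edgeR). KLF11, a repressor induced by TGF-beta, measured 19.2 and 30.0 CPM with EPN24-Cas13d and 14.3 and 14.7 CPM with EPN24, from 80 and 119 counts with EPN24-Cas13d and 32 and 31 with EPN24. It also had a log2 fold change of 0.76 (SE 0.32, adjusted p = 0.0406 by edgeR). Neither was called by the DESeq2 Wald test (adjusted p = 0.1 and 0.191), by limma-voom (0.0654 and 0.0988) or with background subtracted (log2 fold changes of 0.052 and 0.19). The KLF6 call was also lost without EPN24 replicate 1 (0.31) and without EPN24-Cas13d replicate 2 (0.54), and the KLF11 call without EPN24 replicate 1 (0.60), EPN24 replicate 2 (0.71) or EPN24-Cas13d replicate 2 (0.48).

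KLF12, a repressor first described at the AP-2 alpha gene, was among the 6 KLF messages of highest mean CPM and showed no called difference. It measured 23.3 and 22.9 CPM with EPN24-Cas13d and 26.8 and 25.6 CPM with EPN24, from 97 and 91 counts with EPN24-Cas13d and 60 and 54 with EPN24 (log2 fold change -0.18, SE 0.26, adjusted p = 0.529 by edgeR). It was called lower when scaled to total counts (-0.75, adjusted p = 0.0175 by edgeR), with the stricter filter (-1.04, adjusted p = 0.00257) and with counts halved (-0.58, adjusted p = 0.0471). KLF4, a factor used to reprogram cells to pluripotency, had 24 and 26 counts with EPN24-Cas13d and 13 and 12 counts with EPN24, a log2 fold change of 0.10 (SE 0.53). KLF2, which keeps endothelial and T cells quiescent, had 6 and 17 counts with EPN24-Cas13d against 11 and 4 with EPN24, and KLF14, an imprinted metabolic regulator, had 6 and 6 against 6 and 12. Their log2 fold changes of -0.26 (SE 0.81) and -1.47 (SE 0.76) were not called, and at such counts smaller differences were not detectable.

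KLF5, KLF7, KLF8 and KLF10 were lower with EPN24-Cas13d by larger amounts than KLF3 and KLF9. KLF8, a CtBP-binding repressor (ENSG00000102349.18, chromosome X, 56232356 to 56291531, plus strand), fell furthest, with 4 and 4 counts with EPN24-Cas13d against 32 and 14 counts with EPN24. That was 0.962 and 1.01 CPM with EPN24-Cas13d and 14.3 and 6.63 CPM with EPN24. The means were 0.984 ± 0.0320 CPM with EPN24-Cas13d and 10.5 ± 5.41 CPM with EPN24 (SD, n = 2 each), a log2 fold change of -3.36 (SE 0.71, adjusted p = 0.000693 by edgeR). KLF7, a factor of neuronal outgrowth, had 14 and 17 counts with EPN24-Cas13d and 77.5 and 46 counts with EPN24 (log2 fold change -2.88). KLF5, a driver of proliferation in intestinal epithelium, had 10 and 12 counts with EPN24-Cas13d and 50 and 35 counts with EPN24 (-2.83). KLF10, a TGF-beta-inducible repressor, had 21 and 28 counts with EPN24-Cas13d and 40 and 38 counts with EPN24 (-1.56). These counts are not scaled for the deeper sequencing of the EPN24-Cas13d libraries, and on CPM the groups did not overlap for any of the 4.

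KLF3, a CtBP-dependent repressor, measured 7.33 and 8.81 CPM with EPN24-Cas13d and 16.5 and 14.2 CPM with EPN24 (log2 fold change -0.94, adjusted p = 0.0345 by edgeR). KLF9, a target of glucocorticoid and thyroid hormone, measured 10.1 and 9.56 CPM with EPN24-Cas13d and 18.7 and 16.1 CPM with EPN24 (-0.82, adjusted p = 0.0407 by edgeR). Both calls were lost without EPN24-Cas13d replicate 1 (-0.73 and -0.80), without EPN24-Cas13d replicate 2 (-1.02 and -0.72), without a low-count filter (-0.58 and -0.46) and by DESeq2 (adjusted p = 0.164 and 0.186).

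KLF1, KLF17 and KLF18 had too few counts for the test. KLF1, the erythroid factor of beta-globin expression, had 0 and 6 counts with EPN24-Cas13d and 2 and 5 with EPN24. KLF17, a factor of the early human embryo, had 0 counts in both EPN24-Cas13d libraries against 20 and 2 with EPN24, which against a floor of 3 counts per library was at least 6.68-fold lower. That bound rests on EPN24 replicate 1, since replicate 2 lay under its own floor. KLF18 had 2 and 2 counts with EPN24-Cas13d and 14 and 2 with EPN24.

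By share of the sample, SP1 rose and its relatives SP3 and SP4 fell. SP1, the ubiquitous GC-box activator (ENSG00000185591.10, chromosome 12, 53380176 to 53416446, plus strand), measured 222 and 205 CPM with EPN24-Cas13d, against 33.5 and 37.4 CPM with EPN24, from 922 and 816 counts with EPN24-Cas13d and 75 and 79 with EPN24. Its log2 fold change was 2.59 (SE 0.16, adjusted p = 1.62e-09 by edgeR), and the groups were far apart. SP3, which competes with SP1 for the same sites (ENSG00000172845.18, chromosome 2, 173880850 to 173965373, minus strand), measured 11.8 and 8.81 CPM with EPN24-Cas13d and 58.4 and 48.3 CPM with EPN24, from 49 and 35 counts with EPN24-Cas13d and 131 and 102 with EPN24. It fell by 2.37 on the log2 scale (SE 0.27, adjusted p = 2.12e-06 by edgeR). SP4, a factor of neurons, had 10 and 8 counts with EPN24-Cas13d and 29 and 26 counts with EPN24, a log2 fold change of -2.49 (SE 0.54, adjusted p = 0.000796 by edgeR). With the GC trend removed SP3 was at -0.75 and still called, and SP4 at -0.81 and not called, while per ERCC count SP3 was called higher (0.97). Per kilobase of exon, SP1 had 39.3 and 48.7 times the counts of SP3 in the EPN24-Cas13d libraries, against 1.20 and 1.62 times in the EPN24 libraries.

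Among the other SP messages SP9 rose and SP7 fell. SP9, a factor of limb and striatal neuron development, measured 24.2 and 25.4 CPM with EPN24-Cas13d and 6.02 and 10.9 CPM with EPN24, from 100.5 and 101 counts with EPN24-Cas13d and 13.5 and 23 with EPN24. It had a log2 fold change of 1.53 (SE 0.35, adjusted p = 0.0012 by edgeR). It shares exon sequence with the opposite-strand gene ENSG00000280414, at 55.5 and 55 counts with EPN24-Cas13d and 4.5 and 7 counts with EPN24, and was not called with the stricter filter (0.68) or with background subtracted (0.99). SP7, also called osterix and needed for bone formation, had 2 and 4 counts with EPN24-Cas13d and 16 and 16 with EPN24, or 0.481 and 1.01 CPM with EPN24-Cas13d and 7.14 and 7.57 CPM with EPN24. Its log2 fold change was -3.25 (SE 0.79, adjusted p = 0.00186 by edgeR).

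SP2, SP6 and SP8 were not called. SP2, a factor of cell division in the embryo, measured 28.1 and 28.2 CPM with EPN24-Cas13d and 14.7 and 27.5 CPM with EPN24, from 117 and 112 counts with EPN24-Cas13d and 33 and 58 with EPN24 (log2 fold change 0.42, SE 0.30, adjusted p = 0.207 by edgeR). Without EPN24 replicate 2, the EPN24 library nearest to the EPN24-Cas13d values, SP2 was called higher (0.86, adjusted p = 0.0162 by edgeR). SP6, a factor of tooth enamel cells, measured 16.0 and 15.1 CPM with EPN24-Cas13d and 9.81 and 10.4 CPM with EPN24 (0.61, SE 0.35). SP8, a factor of limb outgrowth, had 8 and 16 counts with EPN24-Cas13d and 6 and 10 with EPN24 (-0.31, SE 0.75). SP5, a target of Wnt signalling, was not tested, with 0 and 2 counts with EPN24-Cas13d against 10 and 0 with EPN24. The log2 ratio of summed counts was -3.22 after correction for effective library size, with a 95% exact binomial interval of -6.45 to -0.99. That interval rests on EPN24 replicate 1, since EPN24 replicate 2 held 0 counts.

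No EGR message was higher with EPN24-Cas13d. EGR1, the most studied immediate early factor (ENSG00000120738.8, chromosome 5, 138465479 to 138469303, plus strand), had 4 and 10 counts with EPN24-Cas13d against 74 and 95 counts with EPN24, although the EPN24-Cas13d libraries were deeper. Its level was 0.962 and 2.52 CPM with EPN24-Cas13d and 33.0 and 45 CPM with EPN24. The means were 1.74 ± 1.10 CPM with EPN24-Cas13d and 39.0 ± 8.46 CPM with EPN24 (SD, n = 2 each), a log2 fold change of -4.47 (SE 0.43, adjusted p = 3.55e-07 by edgeR). Its value was -3.86 without EPN24-Cas13d replicate 1 and -5.21 without EPN24-Cas13d replicate 2. EGR1 had the most counts per kilobase of the 31 messages in EPN24, 23.6 and 30.3 in the 2 libraries.

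EGR3, a factor of muscle spindle development, had 5 and 8 counts with EPN24-Cas13d and 12 and 22 counts with EPN24. Its level was 1.20 and 2.01 CPM with EPN24-Cas13d and 5.35 and 10.4 CPM with EPN24. The means were 1.61 ± 0.574 CPM with EPN24-Cas13d and 7.88 ± 3.58 CPM with EPN24 (SD, n = 2 each), a log2 fold change of -2.27 (SE 0.70, adjusted p = 0.00894 by edgeR), not called without EPN24 replicate 2 (-1.79, adjusted p = 0.149). EGR4 had 0 and 2 counts with EPN24-Cas13d against 12 and 12 with EPN24, a log2 ratio of summed counts of -4.49 after correction for effective library size (95% exact binomial interval -7.61 to -2.48, adjusted p = 0.00122 by edgeR). Without EPN24-Cas13d replicate 1 the fitted log2 fold change of EGR4 was -3.28, and without EPN24-Cas13d replicate 2, where a count of 0 is left, EGR4 was at least 7.65-fold lower. EGR2, needed for myelination, was not tested. It had 0 counts in both EPN24-Cas13d libraries and 2 and 23.5 counts with EPN24, at least 8.14-fold lower against a floor of 3 counts per library, a bound that rests on EPN24 replicate 2.

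ERCC RNA was added to an equal volume of each supernatant. Relative to it the KLF and SP messages were mostly more abundant with Cas13d attached, as were most tested genes. Scaled to ERCC totals, 17 tested members were higher with EPN24-Cas13d, 0 lower and 9 not called. Over all tested genes 58.4% were higher and 2.33% lower, so the members' counts lay near the background. At an unadjusted p of 0.05 by edgeR the count of lower members was also 0. The median log2 fold change on this scale was 2.78 over the tested members and 2.38 over all tested genes. KLF16 had 1732 and 2032 counts per 100000 ERCC counts with EPN24-Cas13d and 2.02 and 2.49 with EPN24, a log2 fold change of 9.70. KLF13 reached 7.68 and SP1 5.96 on the same scale. SP3, at 54.7 and 42.7 counts per 100000 ERCC counts with EPN24-Cas13d and 29.4 and 20.3 with EPN24, was then called higher (0.97, adjusted p = 0.0209 by edgeR).

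The 3 tested EGR messages were not called under ERCC scaling. EGR1 had 4.46 and 12.2 counts per 100000 ERCC counts with EPN24-Cas13d and 16.6 and 18.9 with EPN24 (log2 fold change -1.11, adjusted p = 0.0846 by edgeR). EGR3 was at 1.09 and EGR4 at -1.09 on that scale. KLF5 (0.50), KLF7 (0.45), KLF8 (-0.086), SP4 (0.84) and SP7 (0.053), all lower by share, were not called per ERCC count. KLF3 (2.41), KLF9 (2.52) and KLF10 (1.79), also lower by share, were called higher per ERCC count (adjusted p = 0.000165, 4.85e-05 and 0.00237 by edgeR). The authors' deposited table gives 16 of the 31 members an adjusted p under 0.05 with a positive log2 fold change, and 0 with a negative one. The log2 fold changes in the authors' deposited table lay between 0.066 below and 0.013 above the ERCC-scaled values for the 26 tested members, and 3.14 to 3.37 above the TMM values.

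**Figure D3:**
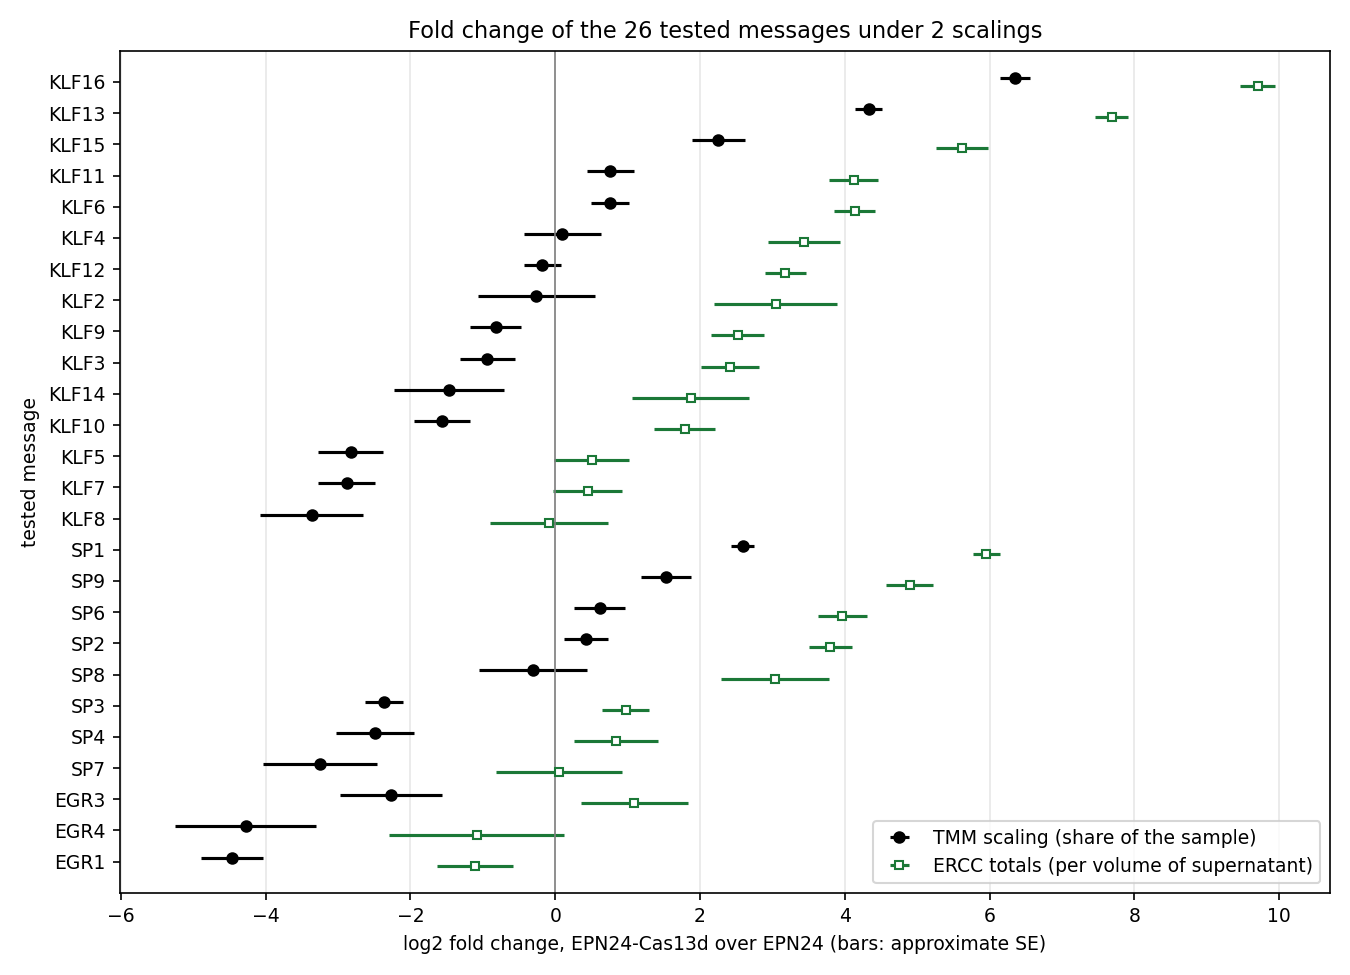
Points give the log2 fold change of EPN24-Cas13d over EPN24 for the 26 tested messages, with bars of 1 approximate SE, under TMM scaling (filled circles) and under ERCC totals (open squares). KLF16 leads at 6.35 and 9.70, and EGR1 lies at -4.47 and -1.11.

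Several members lay close to the density of reads on olfactory receptor genes, used here as a background level. Whether some of these genes are transcribed in the cells was not tested. Over 370 genes of olfactory receptors, the odour sensors of nasal neurons, the density was 0.175 and 0.14 counts per kilobase in the EPN24-Cas13d libraries, against 1.83 and 1.42 in the EPN24 libraries. In EPN24, 10 of the 26 tested members lay within 3 times that density (38.5%), as did 49.9% of all tested genes. They included 4 of the 12 lower members, KLF8 (1.11 times), EGR3 (2.07), SP4 (2.71) and SP7 (2.90). The 2 of the 7 higher members were KLF16 and KLF13. The density itself was lower with EPN24-Cas13d, and whether it accounts for the lower values of the first 4 was not tested. KLF16 was at 3441 times the olfactory receptor density with EPN24-Cas13d and at 2.23 times with EPN24. KLF13 was at 772 times with EPN24-Cas13d and at 1.99 times with EPN24, and SP1 at 682 and 5.85 times. EGR1 was at 14.2 times with EPN24-Cas13d and at 16.5 times with EPN24, the highest of the members in EPN24. With this density subtracted from each library, the log2 fold changes were 6.20 for KLF16, 4.34 for KLF13, 1.90 for SP1 and -5.42 for EGR1. Each of these was called. Of the 22 members then tested 4 were higher and 10 lower, beside 33.8% and 36.6% of all genes then tested. KLF8 and EGR3, lower before, were not tested in this setting.

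Messages with GC-rich transcripts were higher over the whole table, and the KLF members showed a relation of the same sign, with several members of each family far from the medians. Across the 15424 tested protein-coding genes with a known transcript GC, the Pearson correlation of GC with the log2 fold change was 0.483 (Spearman 0.504). It was 0.657 (Spearman 0.493) across the 15 tested KLF messages and 0.344 (Spearman 0.298) across the 26 tested members. These are correlations across genes, which share the same 4 libraries and are not independent replicates. KLF16, at 67.8% GC and 6.35, and KLF2, at 65.2% GC and -0.26, lay in the range above 65%, where the median log2 fold change of coding genes was 2.35. From 55 to 60% GC, where that median was 1.30, KLF13 stood at 4.33 and KLF14 at -1.47. KLF8 (40.6% GC), SP3 (39.1%) and SP4 (38.6%) lay at or below 41%, where coding genes were mostly lower, with a median of -2.90 at up to 40% GC and -1.67 from 40 to 45%. KLF12, at 38.8% GC, stood at -0.18, above the median of its range. SP1, at 44.6% GC, had a log2 fold change of 2.59 in the range from 40 to 45%. EGR1 (55.4% GC), EGR4 (66.0%) and SP7 (55.9%) fell although the medians of coding genes were 1.30 from 55 to 60% GC and 2.35 above 65%.

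**Figure D4:**
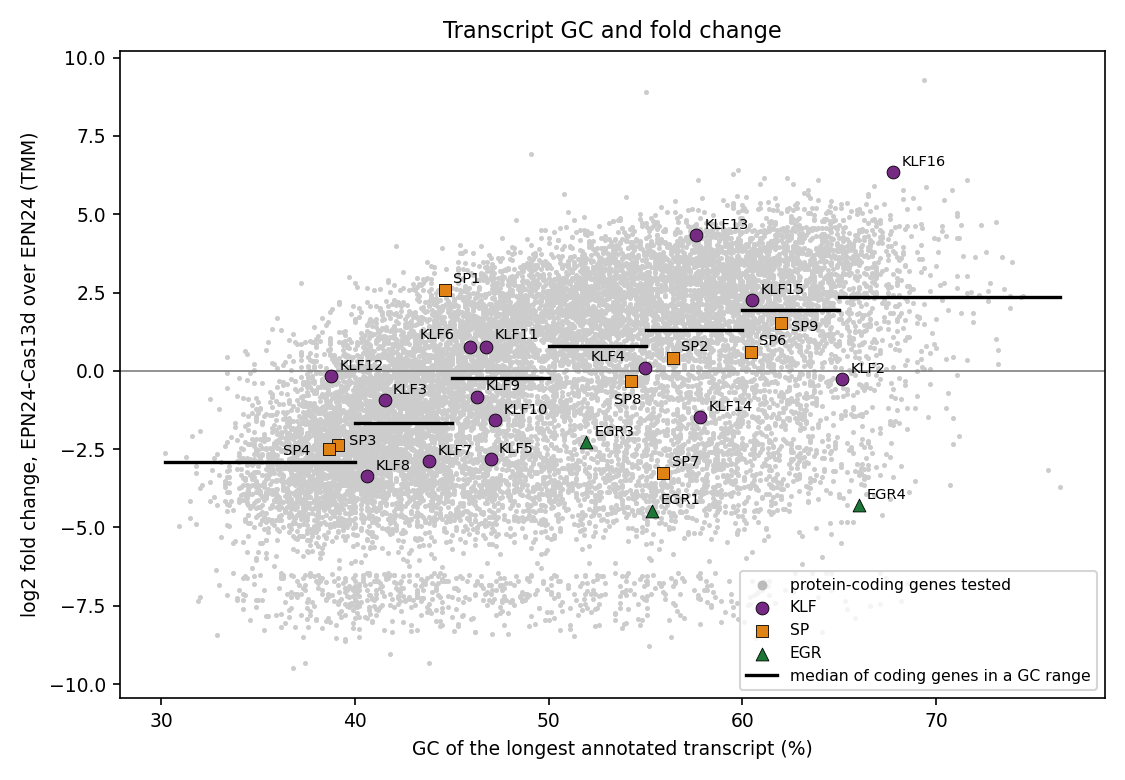
Each point is a tested protein-coding gene, with the GC of its longest annotated transcript (%) on the horizontal axis and its log2 fold change (TMM) on the vertical axis; coloured symbols are the 26 tested members, and black lines are medians of coding genes in GC ranges. KLF16, KLF13 and SP1 lie above the medians of their ranges, and the EGR messages and SP7 lie below.

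With the GC trend of each library removed, KLF16, KLF13, SP1, EGR1, EGR3 and EGR4 kept their direction and calls, and several other calls did not hold. The calls that were lost included SP4 and KLF15, at -2.49 and 2.25 with TMM. KLF16 stayed higher at 4.04, KLF13 at 3.24 and SP1 at 3.26, and EGR1, EGR3 and EGR4 stayed lower at -5.26, -2.63 and -6.34. KLF15 (0.76, adjusted p = 0.0756 by edgeR), SP9 (-0.15), SP4 (-0.81), KLF9 (-0.39) and KLF3 (0.27) were not called. KLF12 was then called higher (1.5), and KLF2 (-2.30), KLF14 (-2.57) and SP6 (-0.86) lower. In all 6 members were higher and 12 lower in this setting, 5 and 9 of them in common with the TMM calls, against 30.4% higher and 40.7% lower over all tested genes.

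The whole coding sequences of the members also differed in codon choice, not always in the order of the fingers shown above. GC at the third codon position was 89.3% in KLF16 and 93.1% in KLF13, against 35.3% in SP3 and 33.9% in SP4. In SP1 it was 52.5%, and in EGR1 77.5%. Across the 15 tested KLF messages the Pearson correlation of this GC with the log2 fold change was 0.63, across the 8 tested SP messages 0.507, and across all 26 tested members 0.384 (Spearman 0.348). The 7 higher members had a median of 74.0%, the 12 lower members 61.1% and the 7 that were not called 81.9%. Exon length showed no such relation, with a Pearson correlation of -0.071 across the 26 tested members on a log10 scale. Within the finger stretches alone, GC at the last base of each codon gave 0.265 (Spearman 0.250) across the 26 members. GC of all coding bases gave 0.410, and GC of the untranslated region after them 0.400. Those 2 values were 0.627 and 0.620 across the KLF messages, and 0.417 and 0.391 across the SP messages. Whether codon choice mattered apart from the GC of the whole message was not tested.

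Messages for proteins that work with these factors were mostly higher with EPN24-Cas13d. Of 25 partner messages (corepressors, coactivators, ubiquitin ligases and upstream signalling factors) 16 were higher, 4 lower and 5 not called, with a median log2 fold change of 1.77, beside 32.6% higher and 48.2% lower over all tested genes. SRF, the serum response factor that drives EGR1 transcription, measured 1047 ± 9.28 CPM with EPN24-Cas13d and 25.6 ± 6.72 CPM with EPN24 (SD, n = 2 each), a log2 fold change of 5.35 (adjusted p = 1.93e-12 by edgeR). CTBP1, the corepressor bound by KLF3, KLF8 and KLF12, measured 453 ± 0.536 CPM with EPN24-Cas13d and 32.4 ± 7.70 CPM with EPN24 (3.81). ELK4, an ETS partner of SRF, was lower, at 4.18 ± 0.136 CPM with EPN24-Cas13d and 23.4 ± 0.963 CPM with EPN24 (-2.47, or 0.87 and not called with ERCC scaling). MEF2A, a target of the kinase cascade upstream of KLF2, was lower by share (-1.98) and higher per ERCC count (1.40). HDAC2 and WWP1 were the other 2 lower partners. With the GC trend removed 0 partners were lower by edgeR (1 at an unadjusted p of 0.05), with ELK4 at -0.75 and MEF2A at -0.73.

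Zinc finger messages outside the 3 families whose proteins also bind GC-rich DNA were called in both directions. Among 10 such messages, 6 rose and 3 fell, 1 was not called, and the median log2 fold change was 2.06, beside 32.6% higher and 48.2% lower and a median of -0.96 over all tested genes. MAZ, the MYC-associated zinc finger protein, measured 1682 ± 62.5 CPM with EPN24-Cas13d and 77.5 ± 12.8 CPM with EPN24 (SD, n = 2 each), a log2 fold change of 4.44. ZBTB17, the MYC partner also called MIZ1, was at 5.11. ZNF281 and ZNF148, relatives that bind the same GC-rich motif, were lower, at -3.49 and -2.84, or -0.14 and 0.53 and not called with ERCC scaling. ZNF281 had 20 and 4 counts with EPN24-Cas13d against 65 and 80 with EPN24, so its value was -4.93 without EPN24-Cas13d replicate 1 and -2.72 without EPN24-Cas13d replicate 2. The remaining lower message was VEZF1 (-2.48), a factor of endothelial cells.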

How the data were processed

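Per the submitters' processing notes, the tools included STAR 2.7.10a, featureCounts 2.0.1 and DESeq2 1.36.0, and the builds are given as hg38 and GRCh38. FastQC 0.11.9 and Trim Galore 0.6.7 are also listed. Annotation release, strandedness and multi-mapping are not given in those notes. Per the labels' protocols, RNA came from 200 µl of supernatant and libraries had 17 PCR cycles and 150-nt read pairs. The authors deposited expected counts per gene, not normalized, with fractions; 5 broken rows of 61640 were left out, and counts were rounded. Gene lengths (other) came with them. The authors' deposited table of DESeq2 results holds a mean normalized count (signal), log2 fold changes with standard errors, a Wald score and p-values.

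The whole table was fitted in R 4.3.3 with edgeR 4.0.16 (filterByExpr, TMM without ERCC, robust quasi-likelihood test, Benjamini-Hochberg adjustment over 20476 genes, threshold 0.05). SEs are approximate, the size of the log2 fold change over the root of its F statistic. DESeq2 1.42.0 and limma 3.58.1 gave alternatives. Transcript GC is that of the longest GENCODE 29 transcript, found for 97.3% of tested genes. Replicates held different values (chi-square per degree of freedom 2.39 with EPN24-Cas13d and 3.39 with EPN24), and each was used as labelled. The fitting script was tested on simulated data.

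Every member is named; those in full are the 6 KLF, 4 SP and 2 EGR messages of highest mean CPM and the extremes of each family, and of the 2 other lists the 2 members of smallest p in each direction. HDAC2, WWP1 and VEZF1 fall outside that rule and were named after their values were seen. The members and lists were chosen with earlier results of these data known.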

Additional observations from a re-analysis of the deposited data

How the results depend on the processing

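KLF16, KLF13 and SP1 stayed higher and called in all 16 alternatives, and KLF5 and KLF7 stayed lower and called in all but ERCC totals. With ERCC totals 17 members were higher and 0 lower, and over all genes 11960 were higher and 477 lower. The partner and GC-box lists then had 0 lower messages each, also 0 at an unadjusted p of 0.05 by edgeR. On that scale the log2 fold changes of KLF2 (3.04), KLF3 (2.41), KLF5 (0.50), KLF7 (0.45), KLF9 (2.52), KLF10 (1.79), KLF12 (3.18), SP3 (0.97), SP4 (0.84), SP7 (0.053), SP8 (3.04), EGR3 (1.09), ELK4 (0.87), MEF2A (1.40) and ZNF148 (0.53) turned positive, since this scaling moves the median of all tested genes to 2.38, against -0.96 with TMM. KLF14, not called in either, was at 1.87. With the GC trend removed KLF3 (0.27), KLF12 (1.5), SP6 (-0.86) and SP9 (-0.15) changed sign, as did the uncalled KLF4 (-0.65) and SP2 (-0.50), and 0 partners were lower (1 at an unadjusted p of 0.05). With the stricter filter KLF6 (-0.10) and KLF11 (-0.095) changed sign, as did the uncalled SP2 (-0.43) and SP6 (-0.24), KLF12 was called lower (-1.04), 4 members were higher, 4889 genes were lower, where fewer genes were tested, and 8 partners were lower. With background subtracted 4 members were higher and 5751 genes lower. Scaled to total counts 7 partners were lower. The cause of these moves was not tested beyond what each setting itself changes.

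Leaving out each library in turn moved the median log2 fold change of the tested members to between -1.15 and -0.80, against -0.57 with all 4 libraries. Over all tested genes it lay between -1.17 and -0.42, against -0.96. Between 26 and 29 members were then tested. The lower calls were not the same messages in each fit, as given above for KLF3, KLF9 and EGR3. The lone library of a group is then assumed to vary like the other group. A fit with the replicate number as a block gave 6 higher and 10 lower members, beside 6545 higher and 8496 lower of 20476 tested genes. KLF3, KLF9 and KLF11 were then no longer called. Same-numbered libraries did not visibly deviate together (r = -0.0041 over 20476 genes). With 2 libraries per group this correlation cannot show whether they were made together, which the labels do not state. The low counts of KLF1, KLF17, KLF18, SP5 and EGR2 limit what can be said of them.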
